A study of Mus musculus with 15 samples.

Results

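Chemokine receptors are the surface proteins by which leukocytes read chemokine gradients. The 9 receptors described here, Ccr1, Ccr2, Ccr6, Ccr7, Ccr9, Cxcr3, Cxcr4, Cxcr5 and Cx3cr1, were chosen by name as homing receptors of dendritic cells (DCs) and monocytes, and their symbols were matched to 9 of the 38924 Ensembl gene identifiers in the deposited tables. RNA was measured in 15 libraries of mononuclear phagocytes sorted from naïve female C57BL/6 mice of 6-8 weeks by the labels. There were 3 libraries for each of 5 subtypes: spleen CD8+ DCs and spleen CD4+ DCs, lung-draining lymph node (LN) CD103+ DCs and CD11b+ DCs, and spleen Ly6C+ CD11b+ monocytes. DCs were also gated as CD11c+ MHCII+, and LN DCs were taken from the cells with high MHC class II, the gate for DCs that have migrated from tissue. By the study's methods each library was a pool of 5 mice, with separate cohorts for LN and spleen, so a difference between the organs cannot be told apart from a difference between cohorts or gates. No mouse was treated or genetically altered. Spleen CD8+ and LN CD103+ DCs are called DC1 below, and spleen CD4+ and LN CD11b+ DCs are called DC2.

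The libraries held 4531243 to 10233914 reads assigned to genes, and 15222 to 17693 genes were detected in each. The labelled cells carried their defining transcripts. Summed over 7 DC1 markers, levels were 3744 to 5864 normalized CPM (counts scaled to the library size) in spleen CD8+ DCs and 811 to 1140 in LN CD103+ DCs, against 131 to 452 in the DC2 libraries and 478 to 593 in monocytes. Summed over 5 DC2 markers, levels were 1569 to 2658 CPM in spleen CD4+ DCs and 791 to 879 in LN CD11b+ DCs, against 53.0 to 176 in the DC1 libraries, but monocytes, which also carry Itgam, had 2279 to 2596. Summed over 5 monocyte markers, they were 4376 to 4893 CPM in monocytes and at most 669 in any DC library. Itgae, which encodes CD103, was at 20.8 to 39.6 CPM in LN CD103+ DCs and at 71.8 to 135 CPM in spleen CD8+ DCs, so its transcript was not highest in the subtype sorted on that protein. In bulk RNA of this kind, fewer cells of a type and less RNA per cell cannot be told apart.

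Each receptor is a G protein-coupled receptor that signals mainly through Gi proteins and steers cells towards its ligands. Ccr7 guides DCs through lymphatics to the T cell zone along Ccl19 and Ccl21, Cxcr5 guides cells to B cell follicles along Cxcl13, and Cxcr4 holds cells near Cxcl12 in marrow and stroma. Ccr2 lets monocytes leave the marrow in response to Ccl2 and Ccl7, Cx3cr1 binds fractalkine (Cx3cl1) and is a marker of monocytes and macrophages, and Ccr1 binds inflammatory chemokines such as Ccl3, Ccl5, Ccl6 and Ccl9. Ccr6 binds Ccl20 at epithelia, Ccr9 binds Ccl25 of the thymus and small intestine, and Cxcr3 binds the interferon-induced Cxcl9, Cxcl10 and Cxcl11.

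The promoters of 4 receptors are given first because these genes had contrasting patterns over the subtypes and a window free of annotated exons. Ccr9 and Cxcr3 were both highest in spleen CD8+ DCs, whereas Ccr6 was near 0 there and in monocytes. Ccr1 was near 0 in spleen CD4+ and LN CD103+ DCs and higher in spleen CD8+ DCs, LN CD11b+ DCs and monocytes. The sequences are RefSeq promoters of build GRCm38.p6, read 5′ to 3′ on the gene's strand, and only bases before the first annotated exon base are printed. Ccr1 lies on the minus strand, with its promoter at chr9:123968693-123968942. Ccr6 lies on the plus strand at chr17:8235793-8236042. Ccr9 lies on the plus strand at chr9:123766961-123767168. The Ccr9 gene used for counting starts upstream of this window, at chr9:123678439. Cxcr3 lies on the minus strand at chrX:101734270-101734397. Capitals mark the matches to the motifs named in the next paragraph.
Ccr1: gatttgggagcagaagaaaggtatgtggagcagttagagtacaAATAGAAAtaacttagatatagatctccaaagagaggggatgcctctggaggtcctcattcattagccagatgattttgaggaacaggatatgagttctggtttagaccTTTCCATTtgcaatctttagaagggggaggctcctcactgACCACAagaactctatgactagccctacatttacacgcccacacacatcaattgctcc
Ccr6: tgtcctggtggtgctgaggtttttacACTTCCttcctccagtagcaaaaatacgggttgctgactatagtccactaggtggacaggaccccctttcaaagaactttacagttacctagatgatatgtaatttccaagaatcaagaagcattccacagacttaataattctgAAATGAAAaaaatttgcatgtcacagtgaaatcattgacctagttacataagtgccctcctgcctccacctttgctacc
Ccr9: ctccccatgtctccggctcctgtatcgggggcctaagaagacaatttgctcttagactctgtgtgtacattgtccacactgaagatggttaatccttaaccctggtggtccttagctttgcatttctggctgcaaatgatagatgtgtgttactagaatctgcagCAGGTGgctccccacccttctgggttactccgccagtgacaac
Cxcr3: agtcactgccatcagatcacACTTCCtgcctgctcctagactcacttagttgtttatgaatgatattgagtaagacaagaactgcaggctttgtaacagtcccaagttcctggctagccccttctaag

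The motifs searched on both strands were ETS (GGAAGT), IRF (AANNGAAA), RUNX (TGTGGT), E-box (CAGGTG), C/EBP (TTGCNNAA), AP-1 (TGANTCA) and the TATA box (TATAAA), and no marked match overlapped another. The Ccr1 window held 2 IRF matches, the first bases of which lay 207 and 98 bases before the RefSeq start, and 1 RUNX match 58 bases before it. The Ccr6 window held 1 ETS match 224 bases and 1 IRF match 79 bases before the start. In windows of the same 250 bases over 32851 RefSeq promoters, 21.3% held the IRF letters, 19.7% the ETS letters and 14% the RUNX letters. The Ccr9 window of 208 bases held 1 E-box match, present in 14.9% of all promoters over the same bases, and the Cxcr3 window of 128 bases held 1 ETS match, present in 8.9%. Such matches are frequent in promoters at large and describe the letters only. RefSeq promoters matched 7 of the 9 receptors.

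All 9 receptors passed the expression filter of more than 1 CPM in at least 3 libraries. Their combined transcript level differed widely between the subtypes. Summed in TPM, which corrects for gene length and allows levels of different genes to be compared, the 9 receptors reached 4738 ± 586 TPM (SD, n = 3) in LN CD103+ DCs and 3047 ± 328 in LN CD11b+ DCs. The sums were 1013 ± 33.7 TPM in monocytes, 311 ± 84.1 in spleen CD4+ DCs and 275 ± 39.2 in spleen CD8+ DCs. Ccr7 alone made up 97.2% of the sum in LN CD103+ DCs and 92.4% in LN CD11b+ DCs, and ranked 21 and 40 by mean TPM among all genes with reads in these subtypes. In monocytes Ccr2 held 54.6% and Cx3cr1 35.9% of the sum, with Ccr7 at 0.822%. Ccr7, the highest of the 9 in both spleen DC subtypes, was at 211 TPM in CD4+ DCs and 110 in CD8+ DCs. Monocytes had 552 TPM of Ccr2 and 363 of Cx3cr1. Ccr7 made up 65.6% of the sum in spleen CD4+ DCs and 39.3% in spleen CD8+ DCs. In spleen CD8+ DCs Cxcr3 followed with 23.4%, then Ccr9 with 11.6% and Cxcr4 with 11.3%. At more than 10 TPM, 7 receptors were counted in LN CD11b+ DCs, 5 in spleen CD8+ DCs, 4 each in spleen CD4+ DCs and monocytes, and 3 in LN CD103+ DCs.

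**Figure D1:**
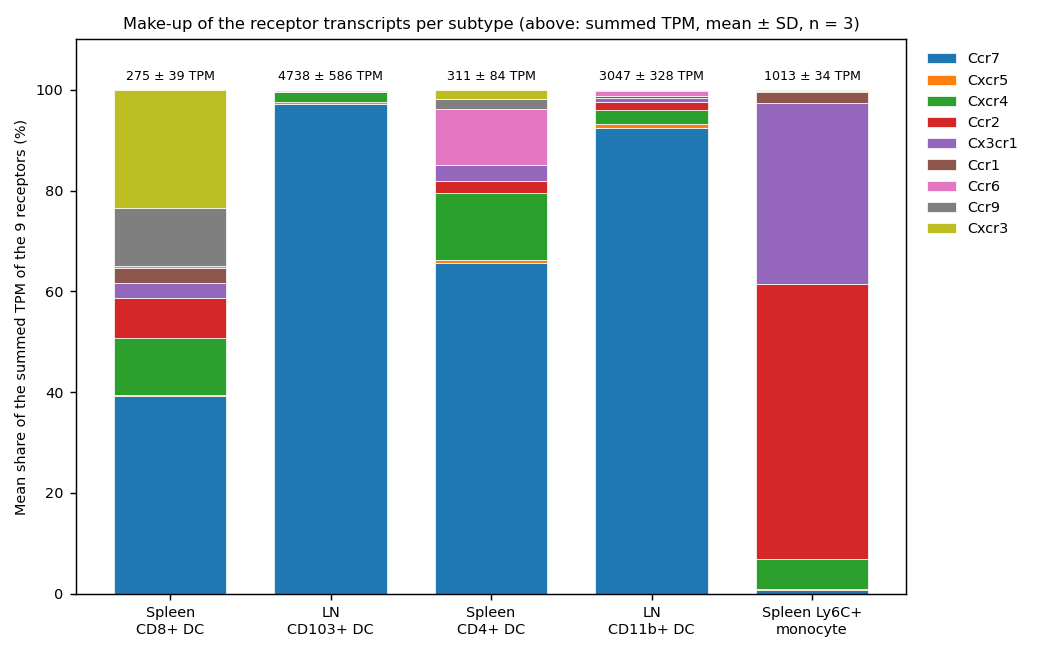
Share of the summed TPM of the 9 receptors taken by each receptor, in percent, for the 5 subtypes (mean of 3 libraries), with the summed TPM above each bar. Ccr7 takes over 90% of the bar in both LN DC subtypes, Ccr2 and Cx3cr1 most of the monocyte bar, and the spleen CD8+ DC bar is divided among several receptors.

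Most receptors separated most pairs of subtypes. Over the 10 pairs, 67 of 90 tests passed an adjusted p of 0.05 by edgeR's quasi-likelihood test. Of all genes tested, 12.9% to 53.2% passed in each pair. Between spleen CD8+ and CD4+ DCs 7 of 9 receptors differed, where 27.4% of all 14456 genes tested did, and between LN CD103+ and CD11b+ DCs 4 of 9 differed against 12.9%. Between the organs, 9 of 9 differed within DC1 against 45.6% of all genes, and 6 of 9 within DC2 against 33.1%. Monocytes differed in 7 receptors from spleen CD8+ DCs (42.1% of all genes), in 7 from spleen CD4+ DCs (48.0%), in 7 from LN CD103+ DCs (53.2%) and in 6 from LN CD11b+ DCs (47.8%). Of the other 2 pairs, LN CD103+ and spleen CD4+ DCs differed in 6 receptors (47.0%), and LN CD11b+ and spleen CD8+ DCs in 8 (39.9%). The background was therefore high wherever monocytes or different organs were compared. Ccr2 differed in all 10 pairs, Ccr7 and Cx3cr1 in 9, Cxcr4 in 5 and Cxcr3 in 4. When the subtypes were ordered by each receptor's level, 18 of the 36 neighbouring pairs differed. The share over all genes was not computed for this count or for the counts of pairs per receptor. For the 67 of 90 tests it was computed for each pair but not over all pairs. A receptor was counted as highest in 1 subtype where it was above each of the 4 others, and this held for 4 of 9 receptors against 18.6% of all genes: Ccr2 and Cx3cr1 in monocytes, and Ccr9 and Cxcr3 in spleen CD8+ DCs.

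**Figure D2:**
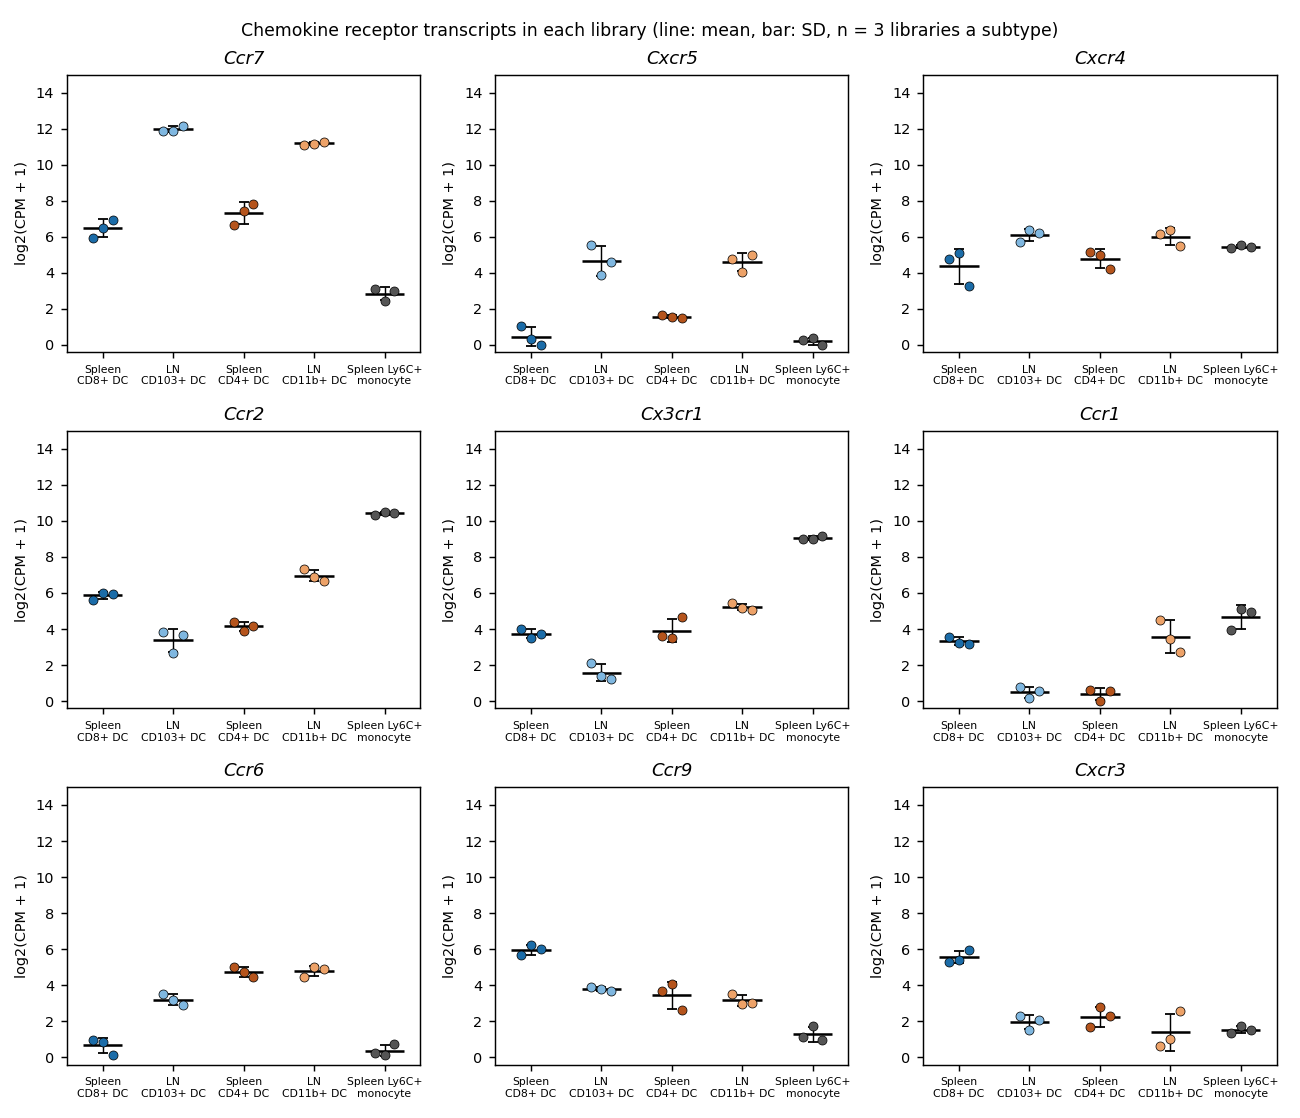
Level of each receptor as log2(normalized CPM + 1), 1 point per library, for the 5 subtypes; the line is the mean and the bar the SD of 3 libraries. Ccr7 and Cxcr5 are highest in both LN subtypes, Ccr2 and Cx3cr1 in monocytes, and Ccr9 and Cxcr3 in spleen CD8+ DCs.

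Of the receptors that guide cells within lymphoid organs, Ccr7 had the widest range. LN CD103+ DCs had 3771, 3787 and 4513 CPM and LN CD11b+ DCs 2166, 2293 and 2491 CPM. Spleen CD4+ DCs had 98.0, 173 and 228 CPM, spleen CD8+ DCs 60.8, 88.7 and 123 CPM, and monocytes 7.47, 4.47 and 7.10 CPM. The LN libraries lay above every spleen library, and only the spleen CD8+ and CD4+ DC libraries overlapped. Ccr7 was 44.3-fold higher in LN CD103+ than in spleen CD8+ DCs (log2 5.47, SE 0.34, adjusted p = 5.99e-10, edgeR) and 13.9-fold higher in LN CD11b+ than in spleen CD4+ DCs (log2 3.80, SE 0.31, adjusted p = 4.28e-08, edgeR). Between the LN subtypes the difference of 0.80 (SE 0.28) on the log2 scale did not pass the test (adjusted p = 0.0714, edgeR), although all CD103+ libraries lay above all CD11b+ libraries. With the replicate number as a block, which paired these samples, it was 0.79 with adjusted p = 0.0182 (edgeR). Spleen CD4+ DCs were 1.83-fold above spleen CD8+ DCs (adjusted p = 0.0289, edgeR), a call lost in 6 alternatives. Without spleen CD4+ DC replicate 3, spleen CD8+ minus CD4+ DCs was -0.57 (adjusted p = 0.146, edgeR), and the call was also lost without spleen CD4+ DC replicate 2 and without spleen CD8+ DC replicate 1 or 2. Monocytes were 14.5-fold below the latter (adjusted p = 2.62e-08, edgeR).

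Cxcr5, the follicle-homing receptor, followed the same order of organs at a far lower level. It was at 45.9, 13.8 and 23.2 CPM in LN CD103+ DCs and at 26.2, 15.2 and 31.1 CPM in LN CD11b+ DCs. Spleen CD4+ DCs had 2.19, 1.87 and 1.83 CPM, spleen CD8+ DCs 1.07, 0.270 and 0 CPM, and monocytes 0.196, 0.291 and 0 CPM. The LN subtypes overlapped each other and neither overlapped any spleen subtype. The organ difference was 5.89 (SE 0.66) on the log2 scale in DC1 (adjusted p = 8.04e-07, edgeR) and 3.60 (SE 0.56) in DC2 (adjusted p = 6.36e-05, edgeR). Spleen CD4+ DCs were 4.28-fold above spleen CD8+ DCs (adjusted p = 0.0430, edgeR), a call lost in 8 of the 15 fits that left out a library. Values against the CD8+ group rest on few reads: without spleen CD8+ DC replicate 1 the DC1 organ difference was 7.60, and without replicate 3 it was 5.29. The value between spleen CD8+ and CD4+ DCs was -3.81 and -1.49 in the same fits. Monocytes minus LN CD103+ DCs was -7.19, and -8.15 without monocyte replicate 2.

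B cells and T cells also carry Cxcr5, so their markers are given beside it. The B cell gene Cd79a had 361, 9 and 22 reads in the LN CD103+ libraries and 104, 13 and 60 in the LN CD11b+ libraries, against 30, 0 and 5 in spleen CD4+ DCs and 19, 2 and 2 in spleen CD8+ DCs. The highest Cxcr5 value thus stood in the library with the most Cd79a. Without that library, LN CD103+ replicate 1, Cxcr5 remained 5.31 above spleen CD8+ DCs on the log2 scale (adjusted p = 3.38e-06, edgeR), and its difference from LN CD11b+ DCs went from 0.19 to -0.39, neither past the test. Summed over 5 B cell markers, levels were 14.97 to 188 CPM in LN CD103+ DCs, 48.0 to 78.2 in LN CD11b+ DCs, 70.8 to 88.7 in spleen CD4+ DCs, 29.6 to 41.4 in spleen CD8+ DCs and 24.2 to 29.7 in monocytes, and Pax5 was at 0 in all spleen DC libraries. The sum over 6 T cell markers was 84.9 to 122 CPM in LN CD103+ and 60.5 to 92.9 in LN CD11b+ DCs, at most 6.09 in spleen DCs and at most 0.583 in monocytes, where 3 of the 6 were at 0. T cell transcripts therefore moved with the LN subtypes as Cxcr5, Ccr7 and Cxcr4 did, and their part in these differences was not tested.

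**Figure D3:**
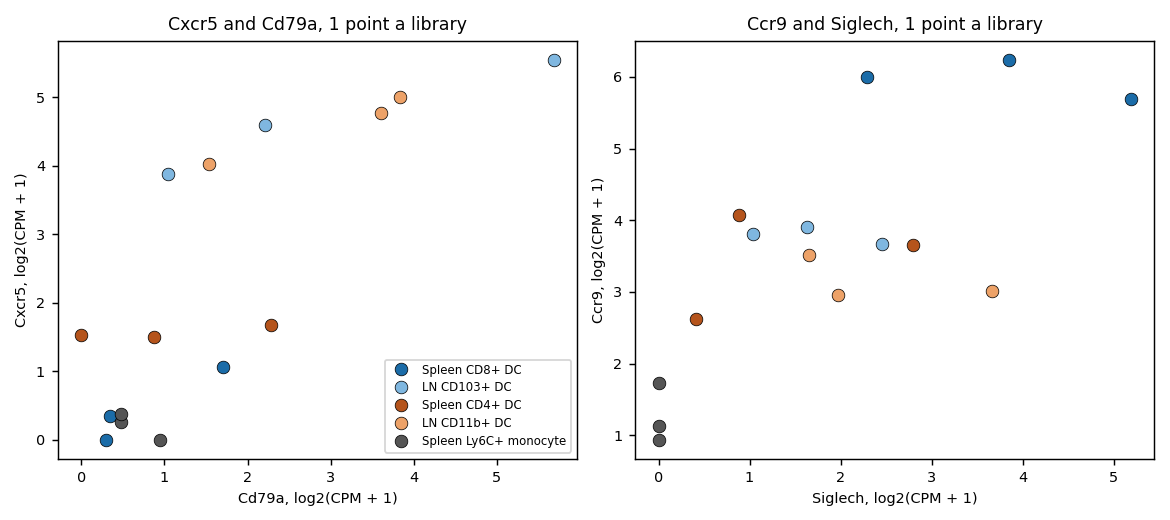
Cxcr5 against the B cell gene Cd79a (left) and Ccr9 against the plasmacytoid DC gene Siglech (right), all as log2(normalized CPM + 1), with 1 point per library coloured by subtype. LN CD103+ replicate 1 is highest in both Cxcr5 and Cd79a, and the spleen CD8+ library with the most Siglech has the lowest Ccr9 of its group.

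Cxcr4 had the smallest range of the 9 receptors, with a largest log2 difference of 1.62 between any 2 subtypes. Its levels were 52.3, 81.0 and 72.0 CPM in LN CD103+ DCs, 69.0, 83.5 and 44.4 in LN CD11b+ DCs, and 41.1, 45.7 and 41.4 in monocytes. Spleen CD4+ DCs had 35.2, 30.7 and 17.6 CPM and spleen CD8+ DCs 25.9, 32.7 and 8.47 CPM. No neighbouring pair in this order passed the test, although the monocyte libraries all lay above the spleen CD4+ DC libraries. LN DCs were above the matching spleen DCs by 1.62 on the log2 scale in DC1 (SE 0.37, adjusted p = 0.0014, edgeR) and by 1.24 in DC2 (SE 0.36, adjusted p = 0.0133, edgeR). The DC2 call was lost without spleen CD4+ DC replicate 3 (adjusted p = 0.0569, edgeR) and without LN CD11b+ DC replicate 2 (adjusted p = 0.0629, edgeR). Monocytes were 1.92-fold above spleen CD8+ DCs (adjusted p = 0.0458, edgeR), close to the threshold and lost in 8 of the 15 fits that left out a library.

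The ligands of these receptors were measured in the same libraries. Ccl19 was at 15.5, 9.82 and 9.27 CPM in LN CD103+ DCs and 6.55, 5.71 and 9.27 in LN CD11b+ DCs, at most 0.809 CPM in spleen DCs and 0 in monocytes. It was higher in the LN by 4.62 on the log2 scale in DC1 (adjusted p = 1.86e-05, edgeR) and by 4.10 in DC2 (adjusted p = 1.56e-04, edgeR). Ccl21a reads were at 44.3, 68.2 and 51.0 CPM in LN CD103+ DCs and 33.2, 86.0 and 49.2 in LN CD11b+ DCs against at most 1.29 CPM in spleen DCs, an uncertain value because near-identical Ccl21 copies can share reads. Cxcl12, the Cxcr4 ligand, reached 3.49, 5.50 and 6.29 CPM in LN CD103+ DCs. Its levels were 2.36, 3.95 and 9.49 CPM in LN CD11b+ DCs, and at most 1.02 CPM in spleen DCs. The Cxcr5 ligand Cxcl13 did not pass the filter. The transcripts of a receptor and its ligand were therefore found in the same LN libraries for Ccr7 and Cxcr4.

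Ccr2 and Cx3cr1 were highest in monocytes. Ccr2 was at 1286, 1419 and 1395 CPM in monocytes, at 157, 117 and 102 in LN CD11b+ DCs and at 48.7, 63.2 and 61.0 in spleen CD8+ DCs. Spleen CD4+ DCs had 19.8, 13.6 and 17.1 CPM and LN CD103+ DCs 13.1, 5.26 and 11.6 CPM. No subtype overlapped another, and each neighbouring pair in this order differed. Monocytes were 10.9-fold above LN CD11b+ DCs (log2 3.44, SE 0.27, adjusted p = 7.62e-09, edgeR), which were 2.18-fold above spleen CD8+ DCs (adjusted p = 0.00163, edgeR). The lowest step, 1.71-fold between spleen CD4+ and LN CD103+ DCs, had adjusted p = 0.0290 (edgeR) and was lost in 4 alternatives. Without LN CD103+ DC replicate 2, LN CD103+ minus spleen CD4+ DCs was -0.45 (adjusted p = 0.162, edgeR).

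Cx3cr1 was at 509, 500 and 568 CPM in monocytes and 42.0, 34.3 and 32.9 CPM in LN CD11b+ DCs. Spleen CD4+ DCs had 11.1, 10.4 and 24.1 CPM, spleen CD8+ DCs 15.2, 10.4 and 12.1 CPM and LN CD103+ DCs 3.35, 1.64 and 1.32 CPM. Only the spleen DC subtypes overlapped. Monocytes were 14.4-fold above LN CD11b+ DCs (log2 3.85, SE 0.30, adjusted p = 7.03e-09, edgeR) and 247-fold above LN CD103+ DCs (adjusted p = 9.25e-12, edgeR). Spleen CD4+ and CD8+ DCs differed by 0.27 (SE 0.30), which did not pass the test.

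Ccr1 was at 14.1, 33.9 and 29.7 CPM in monocytes, at 22.03, 9.96 and 5.52 in LN CD11b+ DCs and at 11.0, 8.36 and 8.12 in spleen CD8+ DCs. In spleen CD4+ DCs it was at 0.515, 0 and 0.499 CPM, and in LN CD103+ DCs at 0.697, 0.117 and 0.497 CPM. The first 3 subtypes overlapped in part and lay wholly above the other 2, which overlapped. Ccr1 was 24.8-fold higher in spleen CD8+ than in spleen CD4+ DCs (log2 4.63, SE 0.68, adjusted p = 5.61e-05, edgeR). In the LN the direction was the opposite, 29.2-fold higher in CD11b+ than in CD103+ DCs (log2 4.87, SE 0.65, adjusted p = 4.40e-05, edgeR). Without LN CD11b+ DC replicate 1 the latter was smaller: LN CD103+ minus LN CD11b+ DCs went from -4.87 to -4.17. In the same fit LN CD11b+ minus spleen CD4+ DCs went from 5.11 to 4.41, and both values were still past the test. The excess of monocytes over LN CD11b+ DCs did not pass the test (log2 1.03, SE 0.46, adjusted p = 0.0715, edgeR), but without LN CD11b+ DC replicate 1 it was 1.73 and passed (adjusted p = 0.00881, edgeR), as it did in 4 other alternatives.

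LN CD11b+ DCs thus held the second highest mean of Ccr1, Ccr2 and Cx3cr1, and markers of monocytes and macrophages are given beside them. Fcgr1, which encodes the Fc receptor CD64 of those cells, was at 21.6, 16.7 and 9.27 CPM in LN CD11b+ DCs, at 115 to 147 CPM in monocytes, and at most 1.32 CPM in LN CD103+ DCs. Its order over the LN CD11b+ libraries was that of Ccr1 and Ccr2. In the same libraries the sum over the 5 monocyte markers was 506, 453 and 488 CPM, a different order. The sum over 6 macrophage markers was 659, 566 and 367 CPM, the same order. Summed over the 5 monocyte markers, levels were 453 to 506 CPM in LN CD11b+ DCs, 52.7 to 71.0 in LN CD103+ DCs, 457 to 669 in spleen CD4+ DCs and 186 to 297 in spleen CD8+ DCs. Summed over 6 macrophage markers they were 367 to 659 CPM in LN CD11b+, 91.0 to 100.3 in LN CD103+, 712 to 989 in spleen CD4+ and 64.4 to 128 in spleen CD8+ DCs, and 390 to 475 in monocytes. No marker of either list was at 0 in any group. The part of monocyte and macrophage RNA in the LN CD11b+ values was not tested. The monocyte libraries had 2 sequencing runs each and the DC libraries 1, and for receptors with at least 30 reads the ratio of the second run to the first was 0.825 to 1.58.

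Of their ligands, Ccl6 was at 655, 724 and 764 CPM and Ccl9 at 404, 453 and 515 CPM in monocytes, which were 47.3-fold (adjusted p = 2.20e-10, edgeR) and 167-fold (adjusted p = 5.21e-11, edgeR) above spleen CD8+ DCs. The Ccr2 ligand Ccl2 was at 10.02, 8.45 and 11.4 CPM in monocytes and 9.35, 4.39 and 7.06 CPM in LN CD11b+ DCs, and at most 2.15 CPM elsewhere. Cx3cl1 was at 77.8, 79.7 and 80.1 CPM in LN CD103+ DCs, where its receptor was lowest, and at 31.5, 33.8 and 41.5 CPM in LN CD11b+ DCs, where its receptor was second to monocytes. Spleen DCs had at most 1.37 CPM of it. The LN CD103+ DCs were 1.16 above LN CD11b+ DCs on the log2 scale (adjusted p = 0.0450, edgeR). Ccl5, which binds Ccr1, was at 7422, 6399 and 7966 CPM in LN CD103+ DCs. LN CD11b+ DCs had 2255, 1870 and 2225 CPM, against 25.2 to 263 CPM in spleen DCs and 4.60 to 10.02 CPM in monocytes. LN CD103+ DCs, with the most Ccl5, had little Ccr1, while LN CD11b+ DCs, with the next most, had the second highest mean of Ccr1.

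Ccr6, the receptor for Ccl20, was higher in DC2 than in DC1 in both organs. LN CD11b+ DCs had 21.3, 31.2 and 29.4 CPM and spleen CD4+ DCs 31.8, 25.7 and 21.3 CPM, which overlapped. LN CD103+ DCs had 10.5, 7.95 and 6.62 CPM, spleen CD8+ DCs 0.955, 0.809 and 0.114 CPM, and monocytes 0.196, 0.0971 and 0.657 CPM. The DC2 subtypes showed no difference past the test (log2 0.05, SE 0.35, adjusted p = 0.936, edgeR) and both lay above LN CD103+ DCs, which lay above the other 2 subtypes. Ccr6 was 41.6-fold higher in spleen CD4+ than in spleen CD8+ DCs (log2 5.38, SE 0.48, adjusted p = 1.56e-07, edgeR), while in the LN the DC2 excess was 3.25-fold (log2 1.70, SE 0.37, adjusted p = 0.00373, edgeR). LN CD103+ DCs were 13.2-fold above spleen CD8+ DCs (adjusted p = 4.27e-06, edgeR). Monocytes were lower than each subtype other than spleen CD8+ DCs. They had few reads of Ccr6, and without monocyte replicate 3 the log2 values for monocytes moved from -6.34 to -7.47 against spleen CD4+ DCs, from -4.69 to -5.82 against LN CD103+ DCs and from -6.39 to -7.52 against LN CD11b+ DCs. Ccr6 is also a gene of B cells, whose summed markers are given above. LN CD103+ replicate 1, with the most Cd79a and the highest B cell sum, had the highest Ccr6 of its group. Spleen CD4+ replicate 1 had the most Cd79a and the highest Ccr6 of its group, but the lowest B cell sum. LN CD11b+ replicate 1 had the most Cd79a, the highest B cell sum and the lowest Ccr6 of its group. The part of B cell RNA in the Ccr6 values was not tested. Ccl20 had no reads in any library.

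Ccr9 and Cxcr3 were highest in spleen CD8+ DCs. Ccr9 was at 50.5, 74.5 and 62.7 CPM there, at 13.9, 13.0 and 11.8 in LN CD103+ DCs, at 11.6, 15.8 and 5.16 in spleen CD4+ DCs, at 10.4, 6.74 and 7.06 in LN CD11b+ DCs and at 1.18, 2.33 and 0.920 in monocytes. The spleen CD8+ libraries lay above all others, no neighbours among the next 3 subtypes differed past the test, and monocytes lay below. The excess over LN CD103+ DCs was 4.84-fold (log2 2.28, SE 0.34, adjusted p = 2.20e-05, edgeR) and that over spleen CD4+ DCs 5.75-fold (log2 2.52, SE 0.34, adjusted p = 2.36e-05, edgeR). In the annotation 6.89% of the exon bases of Ccr9 overlap other genes, and the unstranded counting gave reads to each overlapping gene. Of the 30-base windows in its transcripts 21.95% also occur in other genes, so a share of these reads is uncertain.

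Plasmacytoid DCs carry Ccr9, and CD8 is found on part of them. Their gene Siglech was at 35.5, 13.5 and 3.89 CPM in the spleen CD8+ libraries, at most 11.7 CPM in any other library and 0 in monocytes. Ccr9 was at 50.5, 74.5 and 62.7 CPM in the same spleen CD8+ libraries. Without the library with the most Siglech, Ccr9 was 2.66 above spleen CD4+ DCs on the log2 scale (adjusted p = 5.06e-05, edgeR), against 2.52 with it. Summed over 6 plasmacytoid DC markers, the spleen CD8+ libraries had 231, 125 and 111 CPM. Spleen CD4+ DCs had 101 to 103 CPM and LN CD103+ DCs 93.3 to 144. LN CD11b+ DCs had 123 to 187 CPM and monocytes 157 to 191. The part of plasmacytoid DC RNA in the Ccr9 values was not tested.

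Cxcr3 was at 38.6, 41.5 and 59.9 CPM in spleen CD8+ DCs. It was at 2.19, 5.96 and 3.82 CPM in spleen CD4+ DCs, 3.90, 1.87 and 3.14 in LN CD103+ DCs, 0.537, 1.03 and 4.86 in LN CD11b+ DCs and 1.57, 2.33 and 1.84 in monocytes. The spleen CD8+ libraries were again above all others, and the other 4 subtypes overlapped with no pair among them past the test. The excess was 11.8-fold over spleen CD4+ DCs (log2 3.56, SE 0.51, adjusted p = 4.13e-05, edgeR) and 15.8-fold over LN CD103+ DCs (log2 3.98, SE 0.52, adjusted p = 5.09e-06, edgeR). Over LN CD11b+ DCs it was 24.7-fold, and LN CD11b+ minus spleen CD8+ DCs went from -4.63 to -5.92 without LN CD11b+ replicate 3. Without that library, LN CD11b+ minus spleen CD4+ DCs also went from -1.06 to -2.36 (adjusted p = 0.00264, edgeR) and LN CD103+ minus LN CD11b+ DCs from 0.65 to 1.94 (adjusted p = 0.0279, edgeR), both then past the test. T cells and NK cells also carry Cxcr3. Their summed markers in spleen CD8+ DCs were at most 6.09 CPM over 6 T cell genes and 1.89 CPM over 4 NK cell genes. The T cell sums were highest in the LN libraries. In LN CD11b+ replicates 1, 2 and 3 the NK cell sums were 1.83, 3.08 and 14.8 CPM and the T cell sums 60.5, 71.5 and 92.9 CPM. Cxcr3 was at 0.537, 1.03 and 4.86 CPM in these libraries, the same order. In LN CD103+ DCs the NK cell sums were 1.17 to 3.31 CPM. The part of these cells in the Cxcr3 values was not tested. The Cxcr3 ligand Cxcl9 was highest in the same subtype, with 76.2, 53.2 and 126 CPM in spleen CD8+ DCs and at most 11.3 CPM in every other library (4.20 above spleen CD4+ DCs on the log2 scale, SE 0.45, adjusted p = 1.61e-06, edgeR). The Ccr9 ligand Ccl25 was at most 4.91 CPM in any library.

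The design lets the organ difference of DC1 be set against that of DC2. For 7 of 9 receptors it differed between the lineages, where 11.2% of all genes tested did. Ccr1, Ccr2 and Cx3cr1 were lower in LN than in spleen DC1, by 4.40, 2.54 and 2.56 on the log2 scale, and higher in LN than in spleen DC2, by 5.11, 2.89 and 1.27, with all 6 differences past the test. Ccr6 was 3.73 higher in LN DC1, while its DC2 difference was 0.05. Ccr9 and Cxcr3 were lower in LN DC1, with values of -2.28 and -3.98, and their DC2 differences of -0.41 and -1.06 did not pass. Ccr7 was higher in the LN in both lineages and the excess was 1.67 larger in DC1. For Cxcr4 (0.38, SE 0.51, adjusted p = 0.706, edgeR) and Cxcr5 (2.29, SE 0.88, adjusted p = 0.106, edgeR) a difference between the lineages was not called.

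**Figure D4:**
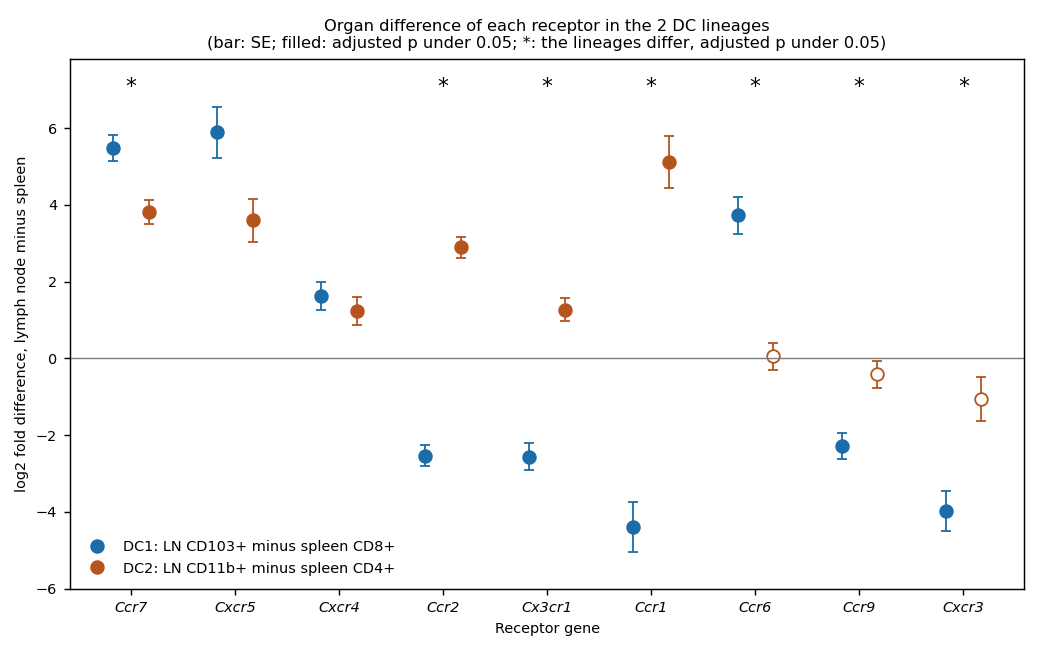
Log2 difference LN minus spleen for each receptor in DC1 and DC2, with standard errors; filled points had an adjusted p under 0.05 and an asterisk marks receptors whose 2 differences differed from each other. Ccr1, Ccr2 and Cx3cr1 lie on opposite sides of 0 in the 2 lineages, while Ccr7, Cxcr4 and Cxcr5 lie above 0 in both.

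Of the 9 receptors, 5 lie on chromosome 9, and 3 of them, Ccr9, Ccr1 and Ccr2, lie in a stretch with 7 receptor genes whose span from Ccr9 to Ccr2 is 435 kb. In the order Ccr9, Cxcr6, Xcr1, Ccr1, Ccr1l1, Ccr3 and Ccr2, neighbours had different patterns. In spleen CD8+ DCs, Xcr1, the DC1 receptor for Xcl1, stood at 385 ± 104 TPM (SD, n = 3), with Ccr9 at 31.8 ± 5.08 and Ccr2 at 21.6 ± 2.31. In LN CD11b+ DCs, Cxcr6 reached 53.0 ± 44.9 TPM, Ccr2 47.1 ± 10.9 and Ccr1 10.6 ± 7.34. In monocytes Ccr2 was at 552 ± 12.6 TPM and Ccr1 at 23.5 ± 8.89, with no other of the 7 above 5 TPM. In spleen CD4+ DCs, Ccr3 was the highest of the 7 at 16.2 ± 4.10 TPM. Of the 30-base windows in Ccr2 transcripts 3.68% also occur in other genes, so a small share of its reads could be ambiguous.

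**Figure D5:**
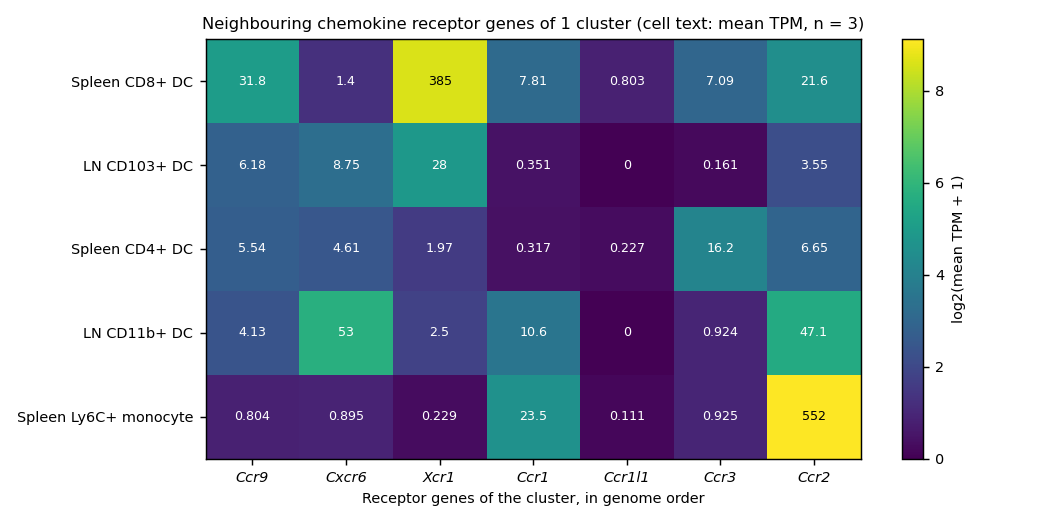
Mean TPM of the 7 receptor genes of the chromosome 9 stretch, in genomic order along the x axis, for the 5 subtypes on the y axis (n = 3 libraries each); the colour is log2(mean TPM + 1) and the cell text the mean TPM. Xcr1 and Ccr9 peak in spleen CD8+ DCs, Ccr2 in monocytes, Ccr3 in spleen CD4+ DCs and Cxcr6 in LN CD11b+ DCs.

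The genes whose log2 CPM tracked each receptor most closely over the 15 libraries were named as a description, with Pearson's r and no p, since libraries of a subtype share their level. Ccr7 was followed most closely by Hcn3 (r = 0.994) and Arhgap28 (r = 0.993), and Cx3cr1 by Dusp7 (r = 0.977) and Gm8995 (r = 0.975). Ccr2 was followed by Ptgir (r = 0.969) and Emilin1 (r = 0.958), Cxcr5 by Chst7 (r = 0.969) and Ankrd35 (r = 0.966), and Ccr6 by Pex16 (r = 0.963) and Cygb (r = 0.960). Cxcr4 was followed by Lxn (r = 0.954) and Sertad1 (r = 0.942), and Cxcr3 by Ece1 (r = 0.944) and Paqr5 (r = 0.939). Ccr9 was followed by Fndc5 (r = 0.962) and by Cadm1 (r = 0.960), an adhesion gene that also marks DC1. Ccr1 had the least close partners, Lman1 and the receptor Ccr2 (both r = 0.883).

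Beyond the 9 receptors, 8 of 15 other chemokine receptors passed the filter. In spleen CD8+ minus CD4+ DCs 1 was higher and 3 were lower, in LN CD103+ minus CD11b+ DCs 1 and 4, in LN CD103+ minus spleen CD8+ DCs 3 and 2, and in LN CD11b+ minus spleen CD4+ DCs 2 and 1, where 27.4%, 12.9%, 45.6% and 33.1% of all genes were called in either direction. Xcr1 fell from 516, 710 and 919 CPM in spleen CD8+ DCs to 96.7, 34.0 and 34.6 CPM in LN CD103+ DCs, a log2 difference of -3.70 (SE 0.46, adjusted p = 2.86e-06, edgeR). Cxcr6, a receptor of tissue-resident lymphocytes, was 3.52 higher on the log2 scale in LN CD11b+ than in spleen CD4+ DCs (adjusted p = 5.83e-04, edgeR), with a wide spread of 11.0, 36.3 and 75.7 CPM. The decoy receptor Ackr1 was 4.40 lower on the log2 scale in LN CD103+ than in LN CD11b+ DCs (adjusted p = 0.00526, edgeR). Of the 30-base windows in Ackr1 transcripts 23.2% also occur in other genes, so a share of its reads is uncertain.

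Among 14 of 18 ligands that passed the filter, more were higher than lower in the LN. In DC1 8 were higher and 2 lower, with a median log2 difference of 3.53 against 0.0048 over all genes, and in DC2 11 were higher and 1 lower, with a median of 3.85 against 0.050. Of all genes 45.6% and 33.1% were called in these contrasts. In LN CD103+ minus CD11b+ DCs 3 were higher and 4 lower, against 12.9% of all genes called. There Ccl3, a Ccr1 ligand, was 12.6-fold lower in CD103+ DCs (adjusted p = 1.70e-05, edgeR), and Cxcl10, a Cxcr3 ligand, 3.79-fold lower (adjusted p = 6.77e-05, edgeR). The interaction was called for 5, against 11.2% of all genes, among them Ccl5 (3.64, SE 0.56, adjusted p = 2.79e-04, edgeR) and Cxcl9 (-4.22, SE 0.61, adjusted p = 1.68e-04, edgeR).

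Of 31 signalling genes downstream of the receptors, 30 passed the filter. Between LN and spleen 10 were higher and 11 lower in DC1, and 4 higher and 10 lower in DC2, with medians of -0.19 and -0.12 against 0.0048 and 0.050 over all genes, of which 45.6% and 33.1% were called. Monocytes had 17 higher and 2 lower than spleen CD8+ DCs, with a median of 0.69 against -0.043, and 20 higher and 6 lower than LN CD11b+ DCs, with a median of 0.96 against -0.071. Of all genes 42.1% and 47.8% were called in these pairs. Rgs1, which ends Gi signalling, was at 1163, 1698 and 1900 CPM in LN CD103+ DCs, while LN CD11b+ DCs had 926, 848 and 1188 CPM. It was at 726, 561 and 838 CPM in spleen CD4+ DCs, 153, 104 and 121 CPM in spleen CD8+ DCs and 26.3, 44.5 and 32.7 CPM in monocytes, so its order over the 5 subtypes was that of Ccr7. Its organ difference was 3.18 larger in DC1 than in DC2 (SE 0.35, adjusted p = 1.08e-05, edgeR). Rgs18, of the same family, was at 174, 200.1 and 191 CPM in spleen CD4+ DCs and 5.58, 1.05 and 1.16 CPM in LN CD103+ DCs. For this pair its direction was opposite to that of Rgs1. The beta-arrestin gene Arrb1, whose product ends receptor signalling at the membrane, was 7.21-fold higher in monocytes than in spleen CD4+ DCs (adjusted p = 2.49e-08, edgeR).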

How the data were processed

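The deposited table held raw gene counts per library, made by the authors from Ion Torrent reads of polyA cDNA (STAR 2.4.0j on mm10, featureCounts of Subread 1.5.2, Ensembl genes, unstranded, unique reads), with the 2 runs of each monocyte library summed. The authors also deposited TPM values, used here for levels between genes. Counts were fitted with edgeR 4.0.16 (R 4.3.3): TMM factors of 0.883 to 1.10, genes over 1 CPM in at least 3 libraries (14456), 1 model of 5 group means, quasi-likelihood tests, and Benjamini-Hochberg adjustment over all genes at 0.05. The interaction subtracted the DC2 organ difference from the DC1 one. DESeq2 1.42.0 and limma 3.58.1 were alternatives. CPM were scaled by TMM. Pools of mice were the replicates.

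The receptors and gene lists were chosen with earlier results of these data known. Named by rule were all 9 receptors, the 2 genes most correlated with each, the listed genes with the largest called changes, at most 3 a comparison, and ligands of the receptors. Replicate numbers paired the samples where all 3 same-number correlations of deviations from group means exceeded 0.1: LN CD103+ with LN CD11b+ DCs (0.179 to 0.259), spleen CD8+ with CD4+ DCs (0.162 to 0.375), and spleen CD4+ DCs with LN CD103+ (0.117 to 0.146) and LN CD11b+ DCs (0.197 to 0.266). No 2 libraries were identical. The test was tried on simulated data for spleen CD8+ minus CD4+ DCs, with the same spread set for every gene. Changes were put only in genes above a minimum number of reads. It recovered 45% of 2-fold changes and 100% of 4-fold changes there. The simulation did not cover changes in genes near 0 or the interaction. A gene in each of 2 lists is not reported here and was left out of the printed counts and sums. Promoters came from RefSeq tables of GRCm38.p6 and exons from GENCODE.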

Additional observations from a re-analysis of the deposited data

Results flagged for a closer look

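The organ difference, LN minus spleen, was set against itself in the 2 DC lineages by an interaction test (edgeR, adjusted over all 14456 genes tested), and 7 receptors are listed because the difference in DC1 was not that in DC2. In 5 the DC1 value was the lower: Ccr1 (-9.50, SE 0.94, adjusted p = 3.76e-06), Ccr2 (-5.43, SE 0.39, adjusted p = 1.02e-07), Cx3cr1 (-3.83, SE 0.46, adjusted p = 2.55e-05), Cxcr3 (-2.91, SE 0.78, adjusted p = 0.0194) and Ccr9 (-1.86, SE 0.48, adjusted p = 0.0161), all as log2 differences from edgeR. In 2 it was the higher: Ccr6 (3.68, SE 0.60, adjusted p = 4.77e-04) and Ccr7 (1.67, SE 0.40, adjusted p = 0.0101). The values of Ccr1, Ccr2, Cx3cr1, Ccr6 and Ccr7 passed the test in every alternative run. That of Ccr1 was -8.80 without LN CD11b+ DC replicate 1. That of Ccr9 was -1.62 with adjusted p = 0.0617 (edgeR) without the same library. That of Cxcr3 was -1.62 with adjusted p = 0.152 (edgeR) without LN CD11b+ DC replicate 3, and -2.65 with adjusted p = 0.0566 (edgeR) without LN CD103+ DC replicate 2.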

How the results depend on the processing

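Each of the 99 values over 9 receptors and 11 contrasts was computed under up to 23 alternatives: DESeq2's size factors and its test, no expression filter, edgeR's own filter, limma on log2(TPM + 1) and log2(TPM + 0.1), the replicate block, only the 2 subtypes compared (not possible for the interaction), and 15 fits that each left out 1 library. Counts were also taken with a minimum log2 change of 1. Of 74 calls 65 held in all of them, 9 were lost in at least 1 and 0 changed direction. The calls lost were those of Ccr1 in monocytes against spleen CD8+ DCs, Ccr2 in LN CD103+ against spleen CD4+ DCs, Ccr6 in LN CD103+ against LN CD11b+ DCs, Ccr7 and Cxcr5 in spleen CD8+ against CD4+ DCs, Cxcr4 in LN CD11b+ against spleen CD4+ DCs and in monocytes against spleen CD8+ DCs, and the interactions of Ccr9 and Cxcr3; the cause was not tested. Of the values not called, 8 were called in at least 1 alternative. The interaction of Cxcr5 was 2.37 with adjusted p = 0.0367 under DESeq2, and Ccr7 between the LN subtypes had adjusted p = 0.0420 under DESeq2. The counts of receptors called per comparison stayed within 1.5 times their value, and that of receptors highest in 1 subtype ran from 4 to 6. The replicate block, used with the pairing of the numbers, gave 0.79 for Ccr7 in LN CD103+ minus LN CD11b+ DCs (adjusted p = 0.0182, edgeR) and 1.20 for Ccr1 in monocytes minus LN CD11b+ DCs (adjusted p = 0.0368, edgeR), where the numbers did not pair, and it changed no other call past or short of the threshold among the receptors.

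Without 1 library, the following values, none of them called, changed sign over the 15 fits. Ccr1 ran from -0.32 to 0.74 in LN CD103+ minus spleen CD4+ DCs and from -0.23 to 0.81 in LN CD11b+ minus spleen CD8+ DCs. Ccr6 ran from -0.081 to 0.21 in LN CD11b+ minus spleen CD4+ DCs and Ccr9 from -0.083 to 0.61 in LN CD103+ minus spleen CD4+ DCs. Cxcr3 ran from -0.49 to 1.35 in monocytes minus LN CD11b+ DCs, where DESeq2 gave -0.079 and the fit of 2 subtypes -0.064. Cxcr4 ran from -0.74 to 0.073 in spleen CD8+ minus CD4+ DCs, from -0.15 to 0.27 in LN CD103+ minus CD11b+ DCs and from -0.015 to 0.77 in the interaction, and limma gave -0.0011 with TPM + 1 and -0.00098 with TPM + 0.1 for the LN pair. Cxcr5 ran from -0.39 to 0.52 in the LN pair, where limma gave -0.0024 and -0.0061, and from -2.26 to 0.42 in monocytes minus spleen CD8+ DCs. Cx3cr1 ran from -0.47 to 0.23 in spleen CD8+ minus CD4+ DCs. With 3 libraries a group, an exact test of 1 gene could not go below p = 0.1, and low counts limited Ccr1, Ccr6, Cxcr3 and Cxcr5 in the subtypes where they were near 0.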
